A study of Homo sapiens with 10 samples.

Results

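The expressed ZNF zinc finger genes were followed in KYSE-410 cells, an established human oesophageal squamous carcinoma line, with and without SHIP2. A gene belonged to the set when its name was ZNF followed by digits and at most 1 letter (ZNF750 apart) and its mean over all 10 libraries reached 5 CPM (reads assigned to a gene, scaled to a common total per library). The rule took 318 of the 58302 genes in the deposited table, out of 556 with a name of that form. The mean level chose the members, so their presence above 5 CPM is not a result. All 318 passed the filter on low values used for testing, and 314 are annotated as protein coding and 4 as pseudogenes.

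The libraries came from 5 groups of 2. The control was 1 colony transfected with the vector lacking a gRNA and labelled WT (empty vector). The clones D4, G4, G10 and H3 were each expanded from sorted cells edited with the Cas9 nickase against SHIP2, the lipid phosphatase encoded by INPPL1, and were screened by western blot, so each stands for 1 clone. Every comparison of a clone used the same 2 control libraries, and nothing in the labels says that the 2 libraries of a group came from separate cultures. P-values therefore measure only the spread between these libraries, for 4 clones against 1 colony.

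Most ZNF genes encode proteins with a tandem array of C2H2 zinc fingers that reads DNA, and many carry a KRAB domain at the amino terminus. The KRAB domain binds TRIM28, which brings in the histone methyltransferase SETDB1, HP1 proteins and other silencing factors. In humans these genes lie in dense tandem clusters, above all on chromosome 19, and their best known targets are transposable elements and imprinted regions.

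Promoter sequence was available for 272 members, as 350 windows from 250 bases before to 50 after a RefSeq gene start (GRCh38.p14). The windows of 4 members are shown because these zinc finger genes, known for KRAB domains, differed more than 2-fold between groups: ZNF300 was almost lost in 3 clones, ZNF736 in 2, ZNF528 was lowest in 1, and ZNF71 was higher in 3. ZNF300 is at chr5:150904931-150905230 (minus strand), ZNF736 at chr7:64313711-64314010, ZNF528 at chr19:52397599-52397898 and ZNF71 at chr19:56595052-56595351 (all plus strand). In the annotation used for positions, ZNF736 starts at base 64307459, upstream of its window, and the start used in these cells was not determined. Each window is written 5′ to 3′ on the gene's strand, with every CG pair in capitals.
ZNF300: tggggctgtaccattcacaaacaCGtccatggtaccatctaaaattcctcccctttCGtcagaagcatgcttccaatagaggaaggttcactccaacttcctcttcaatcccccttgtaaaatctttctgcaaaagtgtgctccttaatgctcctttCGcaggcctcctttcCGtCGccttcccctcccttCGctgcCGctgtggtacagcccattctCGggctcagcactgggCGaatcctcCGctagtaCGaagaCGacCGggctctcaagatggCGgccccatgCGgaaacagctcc
ZNF736: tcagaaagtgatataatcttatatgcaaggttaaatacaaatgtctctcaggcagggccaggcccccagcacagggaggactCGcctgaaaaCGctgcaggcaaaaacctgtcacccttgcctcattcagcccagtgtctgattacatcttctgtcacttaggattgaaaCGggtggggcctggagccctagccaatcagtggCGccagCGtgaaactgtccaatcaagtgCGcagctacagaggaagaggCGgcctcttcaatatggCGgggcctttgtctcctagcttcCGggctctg
ZNF528: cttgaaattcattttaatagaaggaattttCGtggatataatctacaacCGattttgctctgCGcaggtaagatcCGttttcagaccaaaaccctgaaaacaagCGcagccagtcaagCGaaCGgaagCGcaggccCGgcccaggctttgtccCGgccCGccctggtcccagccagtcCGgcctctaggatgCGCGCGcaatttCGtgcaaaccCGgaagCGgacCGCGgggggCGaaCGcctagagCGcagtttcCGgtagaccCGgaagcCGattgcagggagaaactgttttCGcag
ZNF71: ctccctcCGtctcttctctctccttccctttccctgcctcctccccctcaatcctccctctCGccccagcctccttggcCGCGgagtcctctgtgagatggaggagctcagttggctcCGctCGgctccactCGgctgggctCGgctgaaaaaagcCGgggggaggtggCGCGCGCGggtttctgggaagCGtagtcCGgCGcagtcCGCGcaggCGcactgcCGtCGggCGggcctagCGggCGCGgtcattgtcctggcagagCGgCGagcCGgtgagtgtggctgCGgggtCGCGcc
The window held 15 CG pairs for ZNF300, 9 for ZNF736, 27 for ZNF528 and 31 for ZNF71. The median was 22 over the windows of the members and 14 over all 35116 RefSeq windows. The word ACTACAA, which begins the element bound by the activators ZNF143 and ZNF76, was searched on both strands. It stood in 22 windows of the members (6.29%) and in 974 of all windows (2.77%), and in none of the 4 shown.

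Levels of the members were low. The mean over the 10 libraries ran from 5.04 to 247.6 CPM with a median of 19.1. Just inside the threshold lay ZNF20 at 5.04 CPM, ZNF57 at 5.14 and ZNF222 at 5.16, and just outside lay ZNF333 at 4.90, ZNF414 at 4.83 and ZNF850 at 4.82. Per kilobase of exon the highest were ZNF146 at 49.7 CPM per kb, ZNF384 at 24.9 and ZNF664 at 21.4. ZNF146 encodes a protein made almost wholly of zinc fingers, and ZNF384 a transcription factor known as a fusion partner in leukaemia.

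Across the set, lower levels in the clones were more frequent than higher levels. For the mean of the 4 clones against control (limma on log2(CPM + 1), adjusted p under 0.05 over all 17664 genes tested), 102 members fell, or 32.1%, where 22.0% of all genes tested fell. Of the 318 members 38 rose, or 11.9%, against 18.2% of all genes. Of the 12439 other genes at or above the same 5 CPM mean, 24.4% fell and 21.4% rose. The median change of the members was −0.13 on the log2 scale, and that of all genes tested was −0.02. The 2 control libraries weighed heavily on these counts: without control replicate 1 the fit called 59 members lower and 20 higher, and without control replicate 2 it called 64 lower and 19 higher. With the clone taken as the unit of replication, limma called 0 members, with 8 at an unadjusted p under 0.05, and 0 of all genes, with 693 at that level. As another setting, the median change of the 50 nearest other genes was subtracted from the fitted change of each gene. The standard error of the gene was kept and the median was treated as free of error. P-values relative to neighbours therefore leave out the spread of the neighbours. This setting called 55 members lower and 39 higher, with 2809 lower and 2665 higher among all 17563 genes it covered.

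Each clone had its own balance. In D4 98 members fell (30.8%, with 23.8% of all genes) and 33 rose (10.4%, with 17.5% of all genes). The D4 split was 74 lower and 44 higher after median-of-ratios scaling, and 41 lower and 43 higher with neighbour medians subtracted. Over all genes these settings called 3513 lower and 3648 higher of 17664, and 2877 lower and 2957 higher of 17563. In G4 97 fell (30.5%, with 16.4% of all genes) and 17 rose (5.35%, with 10.9% of all genes). In G10 63 fell (19.8%, with 19.1% of all genes) and 43 rose (13.5%, with 17.8% of all genes), so its share of falling members lay close to that of all genes. In H3 90 fell (28.3%, with 22.1% of all genes) and 49 rose (15.4%, with 23.9% of all genes). Changes of at least 2-fold that passed the test numbered 10 members in D4 (3.14%, with 6.1% of all genes), 2 in G4 (0.629%, with 1.75%), 4 in G10 (1.26%, with 4.51%) and 7 in H3 (2.2%, with 7.21%). For the mean over clones 5 members did so (1.57%, with 2.68%). Control replicate 1 again decided part of the count: without it 65 members were lower in D4, 50 in G4 and 38 in G10, while 11 were higher in G4 and 27 in G10. Without control replicate 2, 21 were higher in D4, 10 in G4 and 28 in G10. Leaving out G4 replicate 1 or 2 gave 63 or 59 lower members in G4, and leaving out replicate 2 gave 9 higher. After subtraction of neighbour medians the lower members numbered 44 for G4, 41 for G10 and 61 for H3, and the higher ones 14, 39 and 32. Over all 17563 genes of that setting 1881, 2764 and 3401 were lower and 1520, 2392 and 3532 higher.

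The clones also differed from each other in most members. An F test among the 4 clones passed for 191 members (60.1%), a smaller share than the 67.3% of all genes tested. Among the other genes at or above a 5 CPM mean it passed for 74.6%. Of the members, 83 passed against control in 0 clones (26.1%, with 28.4% of all genes), 93 in 1 (29.2%, with 25.7%), 60 in 2 (18.9%, with 20.6%), 51 in 3 (16.0%, with 16.7%) and 31 in 4 (9.75%, with 8.64%), so the shares lay near those of all genes. For 12 members (3.77%, with 8.92% of all genes) the calls had opposite signs in different clones.

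**Figure D1:**
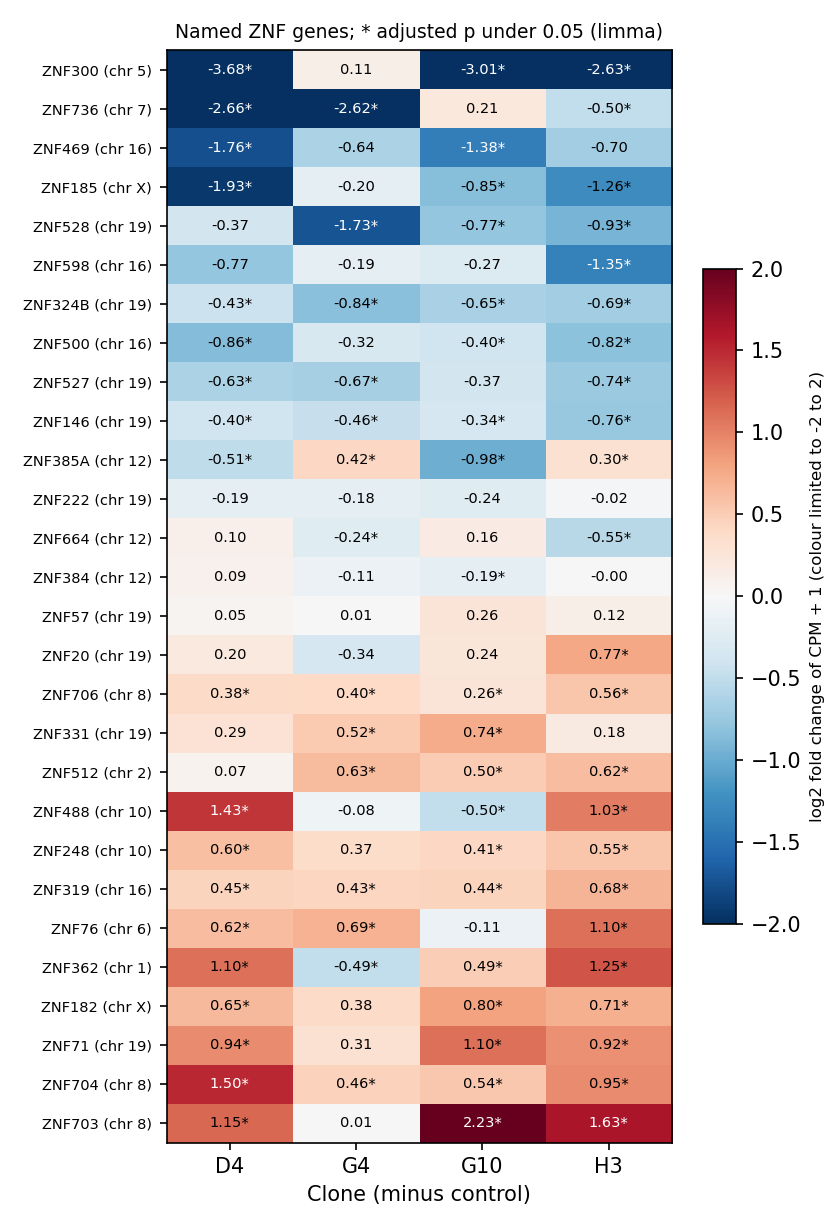
Change of 28 named ZNF genes in each clone (columns) against the control colony, as log2 fold change of CPM + 1, with n = 2 libraries per group; colours stop at −2 and 2, and an asterisk marks an adjusted p under 0.05 (limma). ZNF300 runs from −3.68 in D4 to 0.11 in G4, while ZNF324B is below 0 and ZNF704 above 0 in all 4 clones.

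Falls were more frequent among the members of chromosome 19 than among those of all other chromosomes pooled. The pool was not uniform, and on chromosome 16 11 of 25 members fell for the mean over clones. The median change of the members was −0.21 on chromosome 16 and −0.21 on chromosome 19. Chromosome 19 held 132 of the 318 members, and 58 of them fell for the mean over clones while 5 rose. Of the 186 members elsewhere 44 fell and 33 rose. The same order held in each clone. In D4 53 chromosome 19 members fell (40.2%, with 31.3% of the other chromosome 19 genes), and in G4 60 did (45.5%, with 23.7%). In G10 34 fell (25.8%, with 21.9%) and in H3 48 fell (36.4%, with 21.5%). Members elsewhere fell at 24.2%, 19.9%, 15.6% and 22.6% in the same order of clones, with 25.5%, 17.7%, 21.6% and 25.3% of the other genes elsewhere. On chromosome 19 1, 1, 9 and 12 members rose (0.758%, 0.758%, 6.82% and 9.09%), with 7.02%, 2.52%, 23.2% and 25.8% of the other genes. The long arm, set apart below, held 103 of the 132 members and 383 of the 755 other genes. The shares for the whole chromosome thus mix the arms in unlike proportions. Without control replicate 1 the falling chromosome 19 members numbered 35 for the mean over clones, in D4 and in G4 alike and 19 in G10, and without G10 replicate 2 they numbered 22 in G10.

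On chromosome 19 the falls lay mainly on the long arm. The arms were separated at 25 Mb, a split chosen after seeing the data, since the last member of the short arm ended at base 23687220 and the first of the long arm began at base 32345594. The 103 long-arm members had a median change of −0.27 in D4, −0.34 in G4, −0.23 in G10 and −0.30 in H3. By library, the median difference of these members from the control mean was −0.25 and −0.28 in D4, −0.31 and −0.36 in G4, −0.20 and −0.26 in G10, with −0.30 and −0.27 in H3. The 2 control libraries stood at 0.01 and −0.01, so the 8 clone libraries did not overlap them. Their summed level was 3185 and 3126 CPM in the control libraries and between 2424 and 2753 CPM in the clone libraries.

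The other genes of the long arm moved by a like amount. Its 383 other genes at or above a 5 CPM mean had medians of −0.32 in D4, −0.27 in G4, −0.24 in G10 and −0.21 in H3. Of the long-arm members 42.7% fell in D4, 52.4% in G4, 33.0% in G10 and 43.7% in H3. Of the other long-arm genes 48.3%, 39.4%, 40.7% and 38.4% fell in the same order of clones. The share of the members was thus the lower one in D4 and G10 and the higher one in G4 and H3. After the median of the 50 nearest other genes was subtracted, lower chromosome 19 members numbered 22 for the mean over clones, 13 for D4, 16 for G4, 14 for G10 and 30 for H3. Among the 755 other chromosome 19 genes at or above a 5 CPM mean, 120, 86, 81, 112 and 118 were then lower. The median of the 132 members was then −0.04 for the mean, 0.02 in D4, −0.13 in G4, −0.05 in G10 and −0.13 in H3. The members as a group were not tested against their neighbours, and what moved the neighbours with them was not tested.

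The 29 short-arm members followed another pattern. Their median change was −0.14 in D4 and −0.19 in G4 but 0.24 in G10 and 0.11 in H3. In D4 9 fell (31.0%, with 13.7% of the other short-arm genes) and 0 rose, and in G4 6 fell (20.7%, with 7.53%) and 0 rose. In G10 0 fell and 5 rose (17.2%, with 42.2%), and in H3 10 rose (34.5%, with 41.4%) and 3 fell. The F test among clones passed for 28 of the 29 (96.6%, with 72.8%). Those 372 other short-arm genes had medians of −0.08, 0.00, 0.39 and 0.34 in the same order of clones. ZNF699, a gene of the short arm chosen after its values were seen, moved both ways: its change was −0.58 in G4 and −0.64 in H3 but 0.54 in G10, with 0.35 in D4 that did not pass (adjusted p = 0.0867). Its calls were lost in G10 without control replicate 1 (0.0626), without G10 replicate 1 (0.0944) or with neighbour medians subtracted (0.566), and in G4 without control replicate 2 (0.0619) or G4 replicate 1 (0.162).

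**Figure D2:**
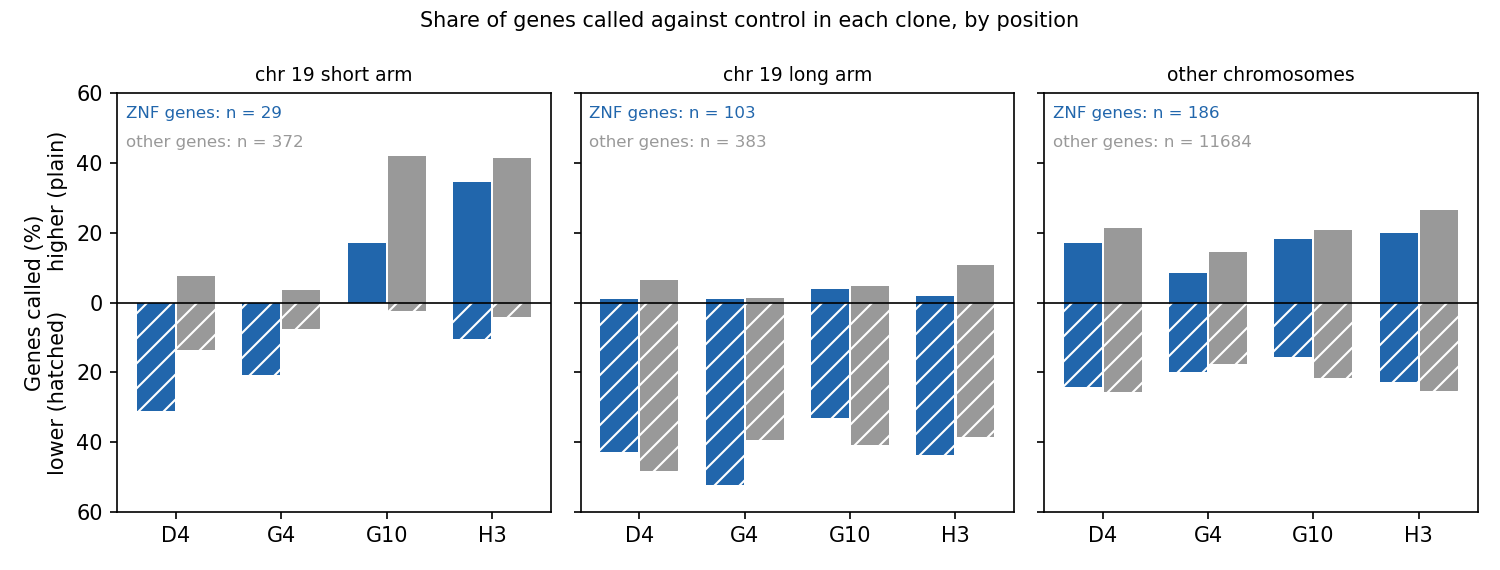
Share of genes called against control in each clone (percent, higher as plain bars upward from 0 and lower as hatched bars downward from 0), for ZNF genes in blue and other genes at or above a 5 CPM mean in grey, on the short arm of chromosome 19, its long arm and all other chromosomes. Falling genes outnumber rising ones on the long arm in all 4 clones for both kinds of gene.

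Along the long arm the change was spread over the clusters rather than held by 1 of them, and 52.4% of the long-arm members fell for the mean over clones where 53.0% of the other long-arm genes did. Members were joined into a cluster where neighbours lay at most 1 Mb apart. The largest cluster held 42 members from ZNF628 to ZNF446 (chromosome 19, 55476332 to 58481230), of which 21 fell and 1 rose for the mean of the 4 clones, with a median of −0.22. The next held 25 members from ZNF175 to ZNF331 (51571298 to 53580269), of which 11 fell and 1 rose, with a median of −0.24. The cluster of 19 members from ZNF575 to ZNF296 (43525497 to 45076588) had 11 falls and 0 rises, with a median of −0.28. The 9 members from ZNF146 to ZNF607 (36214602 to 37719790) had 6 falls and 0 rises, with a median of −0.30. The median change of the neighbours of these clusters lay between −0.31 and −0.13.

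**Figure D3:**
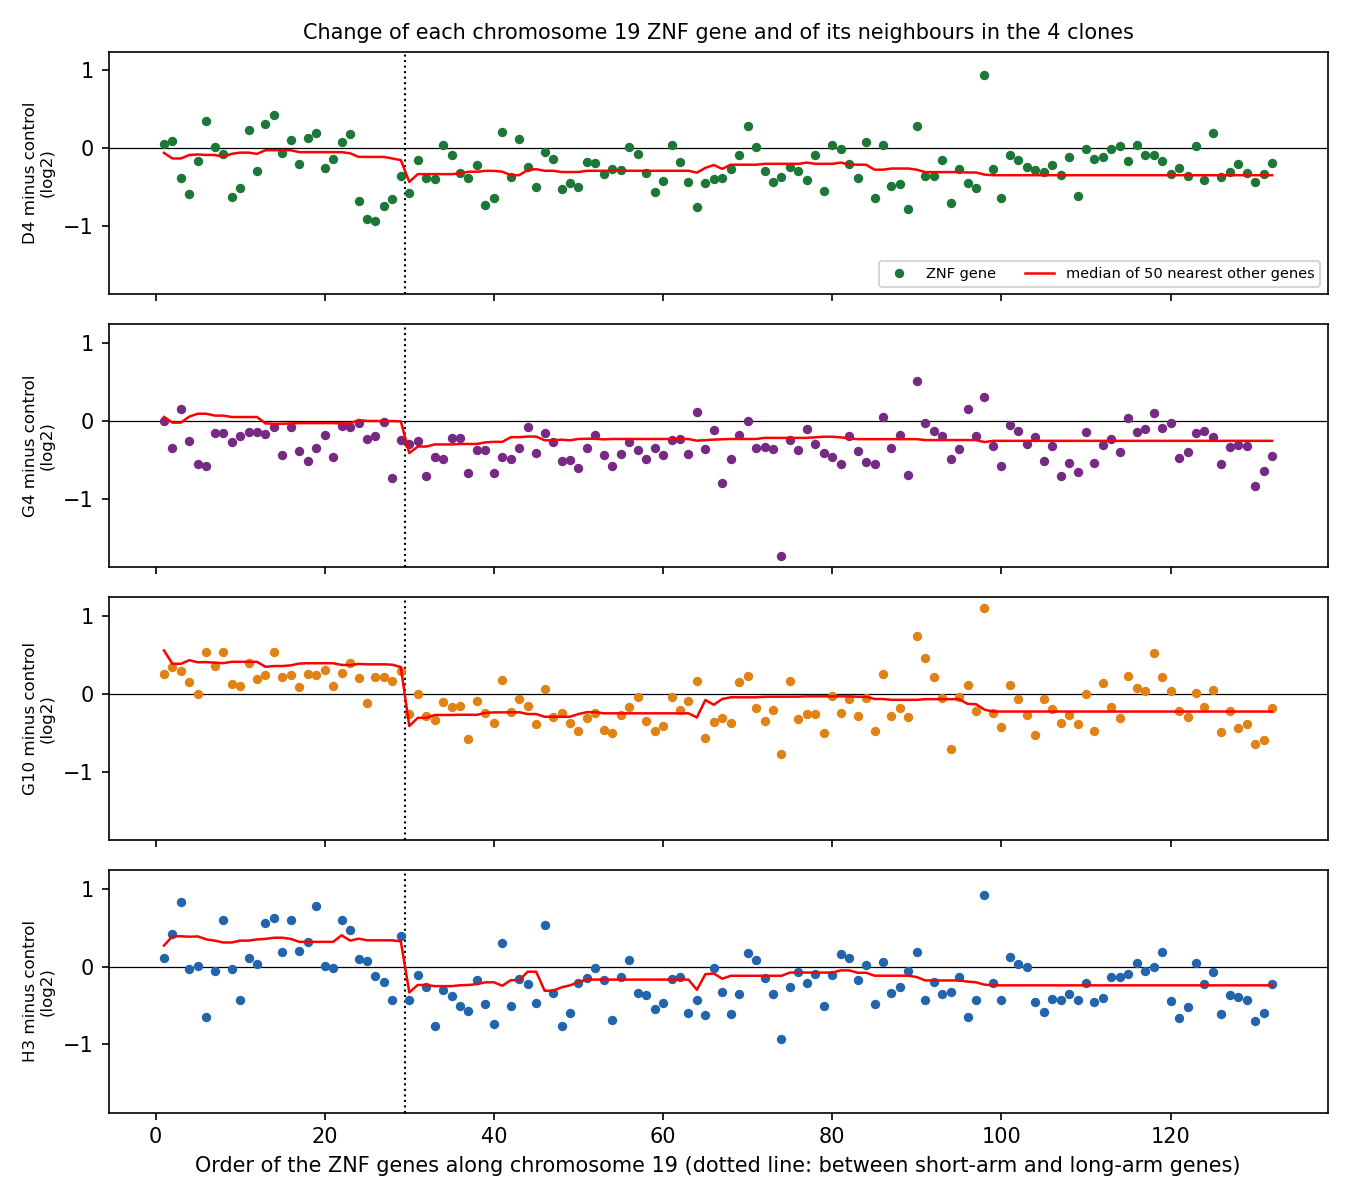
Log2 fold change against control of the 132 chromosome 19 ZNF genes in their order along the chromosome (points), with the median of the 50 nearest other genes (red line), in 1 panel per clone. Most points beyond the dotted line, the 103 genes of the long arm, lie below 0 near the red line, and in G10 and H3 the line on the short arm lies above 0.

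In all 4 clones 26 members fell, which is 8.18% of the set, where 3.9% of all genes tested did so. Of these, 22 lay on the long arm of chromosome 19, 0 on its short arm and 4 elsewhere. The 22 were 21.4% of the long-arm members, and 14.9% of the other long-arm genes also fell in all 4 clones. All 8 clone libraries lay below both control libraries for 71 members (22.3%, with 11.5% of all genes), and above both for 11 (3.46%, with 7.66% of all genes). The changes of the 26 were small, from −0.65 to −0.30 for the mean of the 4 clones. Without control replicate 1 10 members fell in all 4 clones, without control replicate 2 16 did, and with neighbour medians subtracted 2 did.

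ZNF274 and ZNF473, chosen from the 26 for their known roles after their values were seen, illustrate the size of the fall. ZNF274 (chromosome 19, 58183029 to 58213562, plus strand) encodes a KRAB protein that binds over the 3′ ends of other zinc finger genes and recruits SETDB1. Its level was 135 and 137 CPM in the control libraries, 104 and 106 in D4, 92.0 and 93.8 in G4, 98.5 and 94.5 in G10, with 89.8 and 87.9 in H3. Every clone library lay below the control libraries, with a change of −0.51 ± 0.05 (SE) for the mean of the 4 clones and an adjusted p of 1.62e-06. Relative to its neighbours the change in D4 was −0.03 (adjusted p = 0.797).

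ZNF473 (chromosome 19, 50025714 to 50053414, plus strand) encodes a protein that takes part in processing the 3′ ends of histone transcripts. It stood at 77.3 and 74.9 CPM in the control libraries, 55.6 and 55.4 in D4, 60.4 and 58.3 in G4, 53.7 and 48.4 in G10, with 49.3 and 49.3 in H3. The fall was −0.50 ± 0.06 for the mean (adjusted p = 1.07e-05), again with no overlap between clones and control. Relative to its neighbours its change was −0.20 in D4 (adjusted p = 0.0606) and −0.11 in G4 (adjusted p = 0.364). Exons of ZNF473 overlap those of VRK3 on the other strand, and the strand setting of the counting was not given in the sources used here.

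The member of the long arm with the largest fall in all 4 clones was ZNF324B (chromosome 19, 58451604 to 58457833, plus strand), a KRAB gene near the end of the chromosome. It fell from 15.7 and 17.3 CPM in the control libraries to 11.3 and 12.6 in D4, 7.996 and 9.65 in G4, 9.34 and 11.04 in G10, with 9.39 and 10.2 in H3. The change was −0.65 ± 0.11 (adjusted p = 0.000163). With neighbour medians subtracted it was −0.35 for the mean (0.0213). Its fall in D4 did not pass without control replicate 2 (adjusted p = 0.119), without D4 replicate 1 (0.115) or with neighbour medians subtracted (0.655). ZNF146, also in this group, fell from 276 and 258 CPM in the control libraries to between 154 and 221 CPM in the clone libraries, by 0.49 on the log2 scale (adjusted p = 5.87e-06). Relative to its neighbours ZNF146 stayed called in H3 and not in D4 (−0.07, adjusted p = 0.524), G4 (−0.16, 0.126) or G10 (−0.07, 0.536).

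The 4 members that fell in all 4 clones from other chromosomes were ZNF410, ZNF778, ZNF655 and ZNF609, named here after their values were seen. ZNF410 (chromosome 14, 73886617 to 73932511, plus strand) encodes a transcription factor known in red cell precursors to drive the chromatin remodelling gene CHD4. ZNF410 stood at 127 and 120 CPM in the control libraries, 97.6 and 91.4 in D4, 74.0 and 77.8 in G4, 88.0 and 82.9 in G10, with 85.8 and 80.3 in H3. The groups did not overlap, and the change was −0.54 ± 0.06 (adjusted p = 2.73e-06).

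CHD4 itself fell in all 4 clones, from 671 and 651 CPM in the control libraries to 513 and 497 in D4, 529 and 521 in G4, 501 and 485 in G10, with 575 and 575 in H3. Its change was −0.34 ± 0.04 (adjusted p = 7.83e-06). A link between the falls of ZNF410 and CHD4 was not tested, and 3.9% of all genes tested fell in all 4 clones. In G4 the 50 genes nearest to ZNF410 had a median change of −0.57, and ZNF410 with that subtracted was at −0.12 (adjusted p = 0.29). ZNF410 shares exons with AC005520.1 on the same strand and FAM161B on the other, so its level is uncertain. ZNF778 changed by −0.50, ZNF655 by −0.38 and ZNF609 by −0.36 for the mean of the 4 clones, all past the test. Single-clone calls of these 3 rested on few libraries: without control replicate 1 the calls of ZNF778 in G4 (adjusted p = 0.27), ZNF655 in G10 (0.102) and ZNF609 in H3 (0.15) were lost.

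The 3 members that rose in all 4 clones were 0.943% of the set, where 2.81% of all genes did so. ZNF704, a relative of ZNF703 in the NET family of transcriptional regulators, was the largest. It rose from 40.03 and 42.7 CPM in the control libraries to 122 and 115 in D4, 58.0 and 56.4 in G4, 61.8 and 59.2 in G10, with 73.2 and 88.8 in H3. The clone libraries all lay above the control, and the change was 0.86 ± 0.07 (adjusted p = 1.42e-07). ZNF706, a small zinc finger protein that represses Klf4 in mouse embryonic stem cells, rose by 0.40 ± 0.07 (adjusted p = 0.000192). ZNF319 rose by 0.50 ± 0.12 (adjusted p = 0.00297), and its exons overlap those of USB1 on the other strand. Without control replicate 1 or without control replicate 2 1 member rose in all 4 clones. The calls of ZNF319 in D4, G4 and G10 were lost without either control library, and for the mean of the 4 clones without control replicate 2 (adjusted p = 0.0517). The call of ZNF706 in G10 was lost without control replicate 1 (adjusted p = 0.129) and with neighbour medians subtracted (0.348), and in H3 under the latter (0.933).

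Some KRAB genes were near silent in particular clones and at the control level in others. ZNF300 and ZNF736 had means of 5.59 and 5.28 CPM over all libraries. Each reached the 5 CPM threshold only through the groups where it was high. The rule could not take a gene as low as this in every group, so a higher level in some group is not itself a result. ZNF300 (chromosome 5, 150894392 to 150904983, minus strand) had 13.3 and 11.6 CPM in the control libraries and 12.7 and 14.4 in G4. In D4 it had 0.1 and 0 CPM, in G10 0.550 and 0.799, and in H3 1.199 and 1.149. The control and G4 overlapped, and the other 3 clones lay far below them. By estimated reads, D4 held 1 read over both libraries where the control held 301, a ratio of 0.406% of control (95% exact interval 0.0103% to 2.28%, counting error only). The ratio was 5.28% in G10 (3.09% to 8.50%) and 9.25% in H3 (6.09% to 13.6%). On the log2(CPM + 1) scale, which understates such falls, the changes were −3.68 in D4, −3.01 in G10 and −2.63 in H3, with adjusted p of 1.58e-10, 2.21e-09 and 6.94e-09, and 0.11 in G4 (0.678). The 0 in D4 replicate 2 allows up to 0.311 CPM.

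ZNF736 (chromosome 7, 64307459 to 64354860, plus strand) was near silent in another pair of clones. It had 9.04 and 8.64 CPM in the control libraries and 10.2 and 10.5 in G10. In D4 it had 0.800 and 0.350 CPM, and in G4 0.600 and 0.600. H3 lay between, at 5.30 and 6.70 CPM. The ratio to control by estimated reads was 6.28% in D4 (3.09% to 11.5%) and 6.65% in G4 (3.38% to 11.9%). The changes were −2.66 in D4 (adjusted p = 1.12e-08), −2.62 in G4 (9.21e-08) and 0.21 in G10 (0.389). The fall of 0.50 in H3 passed (adjusted p = 0.0316) but did not without either control library (0.127 and 0.0858), without H3 replicate 1 (0.237) or with a pseudocount of 0.1 (0.126). D4 was thus low for both ZNF300 and ZNF736, and each of the other clones was far below control for 1 of them.

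ZNF528 (chromosome 19, 52397849 to 52418412, plus strand), a KRAB gene of the second largest cluster, had its lowest level in G4. It stood at 10.4 and 11.6 CPM in the control libraries, 8.95 and 7.69 in D4, 2.75 and 2.499 in G4, 7.35 and 4.95 in G10, with 5.45 and 5.15 in H3. All clone libraries lay below both control libraries. The change was −1.73 in G4 (adjusted p = 3.25e-06), −0.93 in H3 (0.000301) and −0.77 in G10 (0.00203), and −0.37 in D4 did not pass (0.0917). ZNF527, a KRAB gene of the cluster from ZNF146 to ZNF607, was lower by a more even amount, at −0.63 in D4, −0.67 in G4, −0.74 in H3 and −0.37 in G10, the last not past the test (adjusted p = 0.0749). Its calls in D4 and G4 were lost without replicate 1 of the clone (0.0637 and 0.06) and with neighbour medians subtracted (0.105 and 0.0853).

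ZNF71 (chromosome 19, 56595264 to 56626481, plus strand), a gene with isoforms with and without a KRAB domain, went the other way from its surroundings on the long arm. It had 3.95 and 3.997 CPM in the control libraries, 8.75 and 8.29 in D4, 4.90 and 5.45 in G4, 8.19 and 11.4 in G10, with 7.95 and 8.94 in H3. Every clone library lay above both control libraries. It rose by 0.94 in D4 (adjusted p = 0.000189), 1.1 in G10 (5.38e-05) and 0.92 in H3 (0.00018), and 0.31 in G4 did not pass (0.16). ZNF331, an imprinted gene at the end of the cluster that starts with ZNF175, was the other long-arm member that rose for the mean of the 4 clones. It had 11.5 and 13.5 CPM in the control libraries, 16.8 and 19.9 in G4, and 22.1 and 21.0 in G10, with changes of 0.52 (adjusted p = 0.00759) and 0.74 (0.000332). D4 at 0.29 and H3 at 0.18 did not pass. Without control replicate 1 the rise of ZNF331 did not pass in G4 (0.0856) or for the mean (0.0922), and without G4 replicate 2 it did not pass in G4 (0.0971).

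**Figure D4:**
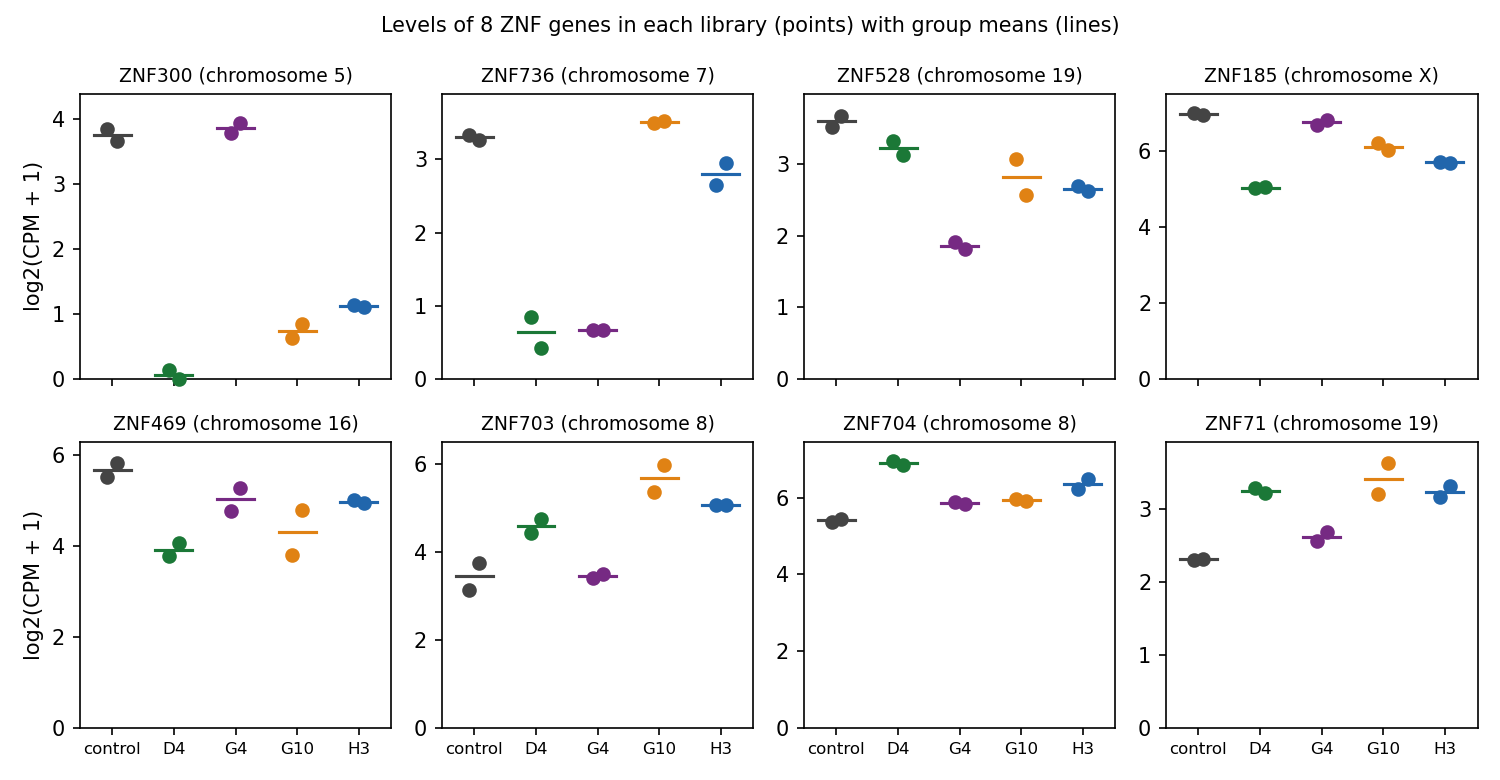
Level of 8 ZNF genes in each library as log2(CPM + 1), with 2 libraries (points) per group and a line at the mean of the 2. ZNF300 is near 0 in D4 and at the control level in G4, ZNF736 is low in D4 and G4, and ZNF704 and ZNF71 lie above the control libraries in all clone libraries.

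Several members with the largest changes carry the ZNF name but are not KRAB repressors. ZNF185 (chromosome X, 152914442 to 152973480, plus strand) encodes a LIM domain protein of the actin cytoskeleton. It had 125 and 120.6 CPM in the control libraries, 31.3 and 31.8 in D4, 101 and 111 in G4, 72.5 and 63.3 in G10, with 51.1 and 50.2 in H3. The clones lay below the control, in the order D4, H3, G10 and G4. The change was −1.93 in D4 (adjusted p = 6.24e-11), −1.26 in H3 (6.91e-09) and −0.85 in G10 (9.7e-07), while −0.20 in G4 did not pass (0.076). In D4 the 50 genes nearest to ZNF185 had a median change of −0.96, and ZNF185 with that subtracted was also at −0.96 (adjusted p = 2.02e-07).

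ZNF703 (chromosome 8, 37695751 to 37700021, plus strand), a NET family co-repressor known as an oncogene in breast cancer, was higher in 3 clones. It had 7.80 and 12.3 CPM in the control libraries, 20.6 and 25.6 in D4, 9.55 and 10.3 in G4, 39.97 and 62.0 in G10, with 32.5 and 32.6 in H3. G4 lay within the control range and the other clones above it. The rises were 1.15 in D4 (adjusted p = 0.00841), 2.23 in G10 (0.000352) and 1.63 in H3 (0.00128), and G4 was at 0.01 (0.978). Without D4 replicate 2 the rise in D4 did not pass (0.0569). G4 was also the clone nearest to control in ZNF300, ZNF185 and ZNF704.

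ZNF469 (chromosome 16, 88427471 to 88440757, plus strand), the gene mutated in brittle cornea syndrome, fell in D4 (−1.76, adjusted p = 0.0109) and G10 (−1.38, 0.0299). The spread was wide, with 45.1 and 56.0 CPM in the control libraries, 12.7 and 15.7 in D4, and 12.9 and 26.9 in G10. G4 at −0.64 and H3 at −0.70 did not pass. Without either control library the fall in G10 did not pass (0.0842 and 0.135), and in D4 it did not without control replicate 2 (0.0659) or D4 replicate 1 (0.0641). ZNF598, a ubiquitin ligase that marks collided ribosomes, had 82.3 and 105 CPM in the control libraries and 37.5 and 34.2 in H3, a fall of 1.35 (adjusted p = 0.0196). For the mean of the 4 clones its change of −0.65 did not pass (0.105). The fall in H3 did not pass without either control library (0.0529 and 0.0998), without either H3 library (0.0743 and 0.0933) or with neighbour medians subtracted (0.159).

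Others moved in opposite directions in different clones. ZNF385A, which encodes a modulator of p53 (chromosome 12, 54369133 to 54391298, minus strand), had 41.4 and 42.0 CPM in the control libraries, 28.6 and 29.2 in D4, 54.3 and 57.8 in G4, 21.3 and 19.9 in G10, with 54.1 and 49.0 in H3. D4 and G10 lay below the control and G4 and H3 above it. The changes were −0.51 in D4 (adjusted p = 0.000202), 0.42 in G4 (0.00218), −0.98 in G10 (3.72e-07) and 0.30 in H3 (0.0105). With neighbour medians subtracted it was at 0.15 in G4 (0.268) and −0.14 in H3 (0.207), and its rise in H3 did not pass without control replicate 1 (0.0573) or H3 replicate 1 (0.125). The call for the mean of the 4 clones (−0.19, adjusted p = 0.0336) turned to 0.07 (0.44) without clone G10. It was also lost without clone D4 (−0.09, 0.363), without either control library (0.143 and 0.18), without G4 replicate 1 (0.0662) or H3 replicate 2 (0.0687), with no filter (0.0825) and after median-of-ratios scaling (0.0635).

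ZNF488, which promotes oligodendrocyte differentiation in mouse, had 11.1 and 12.1 CPM in the control libraries, 34.2 and 31.7 in D4, 11.2 and 10.5 in G4, 8.39 and 7.40 in G10, with 25.8 and 23.6 in H3. It rose by 1.43 in D4 (adjusted p = 8.22e-08) and 1.03 in H3 (2.58e-06) and fell by 0.50 in G10 (0.00269), a fall that did not pass with neighbour medians subtracted (−0.09, 0.612). Without clone D4 its change for the mean was 0.15 (0.269). ZNF362 had 8.40 and 10.4 CPM in the control libraries, and rose by 1.1 in D4, 0.49 in G10 and 1.25 in H3 while it fell by 0.49 in G4 (adjusted p = 0.0225). The calls in G10 and G4 were each lost without 1 control library (0.167 and 0.189) or replicate 2 of the clone (0.132 and 0.24), and the call in G4 with neighbour medians subtracted (0.0829).

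ZNF76, the close relative of ZNF143, had 11.6 and 13.7 CPM in the control libraries, 18.4 and 21.6 in D4, 21.6 and 20.3 in G4, 11.2 and 11.99 in G10, with 29.5 and 26.8 in H3. It rose by 0.62 in D4 (adjusted p = 0.000545), 0.69 in G4 (0.000515) and 1.1 in H3 (1.8e-06), and G10 overlapped the control (−0.11, 0.478). ZNF143 itself did not pass for the mean of the 4 clones (0.16, adjusted p = 0.211). ZNF182, a KRAB gene on chromosome X, rose in D4 (0.65), G10 (0.80) and H3 (0.71), and 0.38 in G4 did not pass (adjusted p = 0.0889). ZNF512 rose by 0.63 in G4, 0.50 in G10 and 0.62 in H3 and stood at 0.07 in D4 (adjusted p = 0.675). It shares exons with AC074091.1, and ZNF182 shares exons with ZNF630, so reads could be split between them.

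Of the remaining named members, the SCAN and KRAB gene ZNF500 fell in D4 (−0.86, adjusted p = 0.000199), H3 (−0.82, 0.000245) and G10 (−0.40, 0.0436). With neighbour medians subtracted ZNF500 passed in D4 and not in H3 (−0.23, 0.237) or G10 (−0.11, 0.629), and in G10 the call was also lost without control replicate 2 (0.318) or G10 replicate 1 (0.265). The KRAB gene ZNF248 rose in D4 (0.60, adjusted p = 0.00267), G10 (0.41, 0.0326) and H3 (0.55, 0.00461). Without control replicate 1 it did not pass in G10 (0.204), H3 (0.0521) or for the mean (0.0699), nor without G10 replicate 1 in G10 (0.225). Among the abundant members ZNF664 fell in H3 (−0.55, adjusted p = 4.06e-05) and the largest change of ZNF384 was −0.19 in G10 (0.0479). That call of ZNF384 was lost without either control library (0.127 and 0.168), without G10 replicate 2 (0.336), without any 1 of the libraries of D4, G4 and H3 (0.0542 to 0.0706) and with no filter (0.0824). Of the members just above the threshold ZNF20 rose in H3 (0.77, adjusted p = 0.00174), and ZNF57 and ZNF222 passed in 0 clones.

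Genes for proteins through which KRAB zinc fingers act moved both ways, with a balance that differed by clone. Of 29 cofactor genes tested (30 listed names, 2 of them old and new names of 1 gene), 10 rose (34.5%, with 18.2% of all genes) and 6 fell (20.7%, with 22.0% of all genes) for the mean of the 4 clones, with a median of 0.09. By clone, 5 rose and 8 fell in D4, 8 and 7 in G4, 8 and 6 in G10, with 11 and 5 in H3. Once neighbour medians were subtracted, 4 rose and 4 fell for the mean. TRIM28, which binds the KRAB domain and lies on the long arm of chromosome 19, had 989 and 1093 CPM in the control libraries and from 822 to 1017 CPM in the clones. Its change of −0.19 ± 0.07 did not pass (adjusted p = 0.053), though it did with any one of D4 replicate 2 (0.0483), G10 replicate 1 (0.0139) or G10 replicate 2 (0.0012) left out. In D4 TRIM28 was called lower (−0.28, adjusted p = 0.0292). That call was lost after median-of-ratios scaling (0.102), with no filter (0.0862) and with neighbour medians subtracted (0.07, 0.627). SETDB1 was at −0.02 ± 0.06 (0.821) for the mean, lower in G4 (−0.25, adjusted p = 0.0313) and higher in H3 (0.21, 0.0449). Both SETDB1 calls were lost after median-of-ratios scaling (0.0794 and 0.0556), with no filter (0.0686 and 0.104) and without either control library. For the mean of the 4 clones TRIM33 fell by 0.35 (adjusted p = 0.00104), HDAC2 rose by 0.32 (5.72e-05) and PPHLN1 by 0.34 (0.00162). The histone methyltransferase gene SUV39H2 rose by 0.37 (0.00307) and the DNA methyltransferase gene DNMT3B by 0.45 (0.00658). Relative to their neighbours the rises of HDAC2 (0.09, 0.154), SUV39H2 (0.13, 0.277) and DNMT3B (0.26, 0.115) did not pass. The rise of SUV39H2 did not pass without control replicate 2 (0.0798), and that of DNMT3B did not without control replicate 1 (0.209) or without clone H3 (0.317). Zinc finger genes of other names (ZSCAN, ZKSCAN, ZFP and ZBTB, 61 with a mean of at least 5 CPM) had 7 rises (11.5%) and 19 falls (31.1%), where 18.2% of all genes rose and 22.0% fell, and a median of −0.11.

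Estimated depth ran from 9647449 to 14246095 gene-assigned reads per library. INPPL1 was at 140 and 150 CPM in the control libraries, 83.6 and 93.3 in D4, 65.4 and 64.4 in G4, 9.49 and 9.49 in G10, with 88.1 and 85.3 in H3, so its transcript was lower in every clone and lowest in G10. Of 18 squamous markers 17 were tested, and their summed level was 6263 to 6442 CPM in the control libraries, 3194 to 3548 in D4, 4598 to 4773 in G4, 2493 to 2670 in G10 and 2421 to 2554 in H3. Of 9 fibroblast markers 2 were tested, with a summed level of 12.2 to 21.0 CPM in control and G4 and 42.0 to 137 in the other clones. LUM alone stood at 56.8 and 50.1 CPM in D4, 29.9 and 26.4 in G10, with 119 and 116 in H3, while DCN, COL3A1, COL1A2 and THY1 were at or near 0. Of 10 leukocyte markers only CD68 was tested (37.6 to 38.6 CPM in the control, 37.3 to 38.5 in G4 and 5.85 to 13.7 in the others), and PTPRC, CD3E and MS4A1 were at or near 0. The squamous and LUM levels thus moved with clone as several members did, and their part in the results was not tested. In bulk RNA, fewer cells of a kind and less RNA per cell cannot be told apart.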

How the data were processed

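The authors deposited 1 table of CPM values, 1 column per library and 58302 genes, in which each library sums to 1000001 after rounding. Libraries were made from total RNA with the Ovation Solo kit per the labels' protocols. The submitters' processing notes list STAR 2.5.3a, HTSeq and hg38; the strand setting, the annotation release and any filter are not given in the sources used here. Reads were estimated by undoing a scaling that the steps of the values show (99.73% to 100% of the smallest values matched exactly), and served for depth, for the ratios of ZNF300 and ZNF736 and for limma-voom. A gene listed at 0 had no estimated read, and its expected count could still be up to 3 reads, which is 0.211 to 0.311 CPM across libraries. The labels mention no molecular identifiers, so intervals and floors cover counting error only.

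The members and lists were chosen with earlier results of these data known. Levels were tested with limma 3.58.1 (trend and robust moderation, R 4.3.3) on log2(CPM + 1) for the 17664 genes that reached 1 CPM in 2 or more libraries. The model had 1 coefficient per group and 5 residual degrees of freedom, and Benjamini-Hochberg adjustment was made over all genes tested at 0.05. Fold changes on this scale understate the change of low genes. The fit was tested on simulated data. Positions came from GENCODE release 29, in which all 318 members matched, and tables were prepared with Python 3.11.15 and pandas 2.3.3.

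Members were named by rule. It took the 6 largest rises and falls for the mean of the clones with all clone libraries on 1 side of the control, the 3 largest per clone in each direction, and the 6 with the largest range among groups past the F test. It also took members under 0.5 CPM in 1 group and at least 5 in another, the 3 highest per kilobase, the 3 on each side of the threshold, and up to 6 cofactors with TRIM28 and SETDB1. Alternatives were median-of-ratios scaling, no filter, a minimum mean of 5 CPM, a pseudocount of 0.1, limma-voom on estimated reads, a replicate block, subtraction of the median of the 50 nearest other genes at or above a 5 CPM mean, each library and each clone left out, and the clone as unit. Exons of 136 members overlap those of another gene at 1 CPM or more, 78 of them on the other strand, and near-identical zinc finger paralogues can share reads, so such levels are uncertain.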

Additional observations from a re-analysis of the deposited data

Results flagged for a closer look

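For the genes below, the change against control differed between the 4 clones by limma's F test among clones, adjusted over all genes tested, a test that 67.3% of all genes tested passed. No cause was tested for any of them.

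The targeted gene INPPL1 (adjusted p = 1.46e-13) headed the list. The near silent genes ZNF300 (2.28e-10) and ZNF736 (1.68e-09) and the cytoskeletal gene ZNF185 (7.48e-10) came next, with ZNF488 (2.45e-09) and ZNF385A (3.64e-09), which moved in opposite directions in different clones. Adjusted p was 1.58e-07 for ZNF275, 2.41e-07 for ZNF704, 2.65e-07 for ZNF362, 2.99e-06 for ZNF76, 4.48e-06 for ZNF664 and 6.71e-06 for ZNF699. It was 3.49e-05 for ZNF528, 0.000103 for ZNF778, 0.000388 for ZNF146, 0.000391 for ZNF20, 0.000721 for ZNF703, 0.00142 for ZNF512, 0.00152 for ZNF341 and 0.00188 for ZNF71. Smaller differences were found for ZNF500 (0.00531), ZNF331 (0.00553), ZNF410 (0.0112), ZNF384 (0.0121), ZNF274 (0.024), ZNF473 (0.0258) and ZNF706 (0.0344).

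Among the cofactors the clones differed in DNMT3B (adjusted p = 6.67e-06), HDAC2 (0.000416), SETDB1 (0.000787), SUV39H2 (0.00379), CHD4 (0.00541) and TRIM33 (0.0393).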

How the results depend on the processing

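The direction and call of named genes in 235 comparisons gave 4230 values under 22 other settings, of which 3942 kept both, 226 lost the call, 59 gained one and 3 reversed. The reversed values were ZNF385A in H3 at −0.14 and TRIM28 in D4 at 0.07 with neighbour medians subtracted, and ZNF385A for the mean of the clones at 0.07 without clone G10; the cause was not tested. With neighbour medians subtracted, lower members numbered 55 for the mean, 41 in D4, 44 in G4 and 41 in G10, lower chromosome 19 members 22, 13, 16, 14 and 30 in H3, higher members in H3 32, and members lower in all 4 clones 2. With the clone as unit 0 members were higher and 0 lower. With 1 library left out, members for the mean over clones ranged from 19 to 39 higher and 59 to 106 lower, for D4 from 21 to 36 and 65 to 112, for G4 from 9 to 18 and 50 to 104, for G10 from 27 to 44 and 38 to 67, for H3 from 34 to 51 and 66 to 96. Lower chromosome 19 members then ranged from 35 to 61 for the mean, 35 to 58 for D4, 35 to 63 for G4, 19 to 37 for G10, 36 to 50 for H3. Members called in all 4 clones ranged from 1 to 3 higher and 10 to 27 lower, and those past the F test from 162 to 194. A fit with 1 library of a group assumes that it varies like the other groups.

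Same-numbered libraries of different groups were not shown to be paired, since the correlation of their deviations ran from 0.213 to 0.414 over the 6 pairs among control, D4, G4 and G10 but from −0.237 to −0.083 over the 4 pairs with H3. With the replicate number as a block, 38 members were higher and 109 lower for the mean over clones, against 35 and 109 for D4, 17 and 103 for G4, 46 and 71 for G10, 52 and 96 for H3. Under the block 8 calls of named genes were gained: ZNF598 for the mean (0.0301) and D4 (0.0351), TRIM28 for the mean (0.0326) and H3 (0.0362), ZNF469 in H3 (0.0413), HDAC2 in H3 (0.0264), SUV39H2 in G10 (0.0291) and TRIM33 in D4 (0.0469). A count of 0 allowed up to 0.211 to 0.311 CPM by library.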

Other observations

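Outside chromosome 19, the largest group of members lay on chromosome 16, where 25 members had a median change of −0.21 for the mean of the 4 clones, with 11 lower and 1 higher, and the genes around them a median of −0.12. The 23 members on chromosome 7 had 6 lower and 2 higher with a median of −0.04, and the genes around them a median of 0.01. The 7 members on chromosome 20 had 1 lower and 4 higher with a median of 0.22, and the genes around them a median of 0.03. Of all genes tested 22.0% were lower and 18.2% higher for the mean of the 4 clones. Whether the members of these chromosomes differ from other genes was not tested.

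Changes past 2-fold also occurred in ZNF275 and ZNF341, both singled out after their values were seen. ZNF275 on chromosome X had 24.3 and 23.0 CPM in the control libraries, 7.65 and 6.45 in D4, and between 17.9 and 23.2 in the other clones. It fell in D4 by 1.62 (limma adjusted p = 8.03e-08) and passed in no other clone. The 50 genes nearest to ZNF275 had a median change of −0.97 in D4, and its fall with that subtracted was −0.65 (0.00101). ZNF341 on chromosome 20, a gene known for activating STAT3 transcription, had 4.85 and 6.85 CPM in the control libraries and 12.8 and 13.3 in D4, a rise of 1.05 (9.87e-05).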
